A study of Mus musculus with 6 samples.

Results

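The genes described here are 10 regulators of the G1 phase of the cell cycle, measured in the uterus of pregnant mice: the D-type cyclins Ccnd1, Ccnd2 and Ccnd3, the E-type cyclins Ccne1 and Ccne2, the cyclin D kinases Cdk4 and Cdk6, and the Cip/Kip inhibitors Cdkn1a, Cdkn1b and Cdkn1c. They were matched by symbol, and all 10 were found among 21900 different symbols (21936 rows) in the tables. RNA was sequenced from whole uteri collected on gestational day 4, with the vaginal plug as day 1, from females 6 to 8 weeks old that had been mated with fertile males. There were 3 libraries labelled Mettl3 f/f, called controls 1 to 3 below, and 3 labelled Mettl3 d/d, called d/d 1 to 3, each by its replicate number. By the usual notation f marks a floxed allele and d its deleted form, and Mettl3 encodes the catalytic subunit of the RNA N6-methyladenosine methyltransferase. The sources used here name neither the Cre driver, nor the cells in which it acts, nor the deleted exons. No label ties the replicates to separate animals, and the tests therefore measure the spread between these libraries, which may be technical.

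In early G1, D-type cyclins bind Cdk4 or Cdk6 and phosphorylate the retinoblastoma protein. This releases E2F factors, which raise E-type cyclins and the genes of DNA synthesis, and cyclin E with Cdk2 carries the cell into S phase. The Cip/Kip proteins p21 (Cdkn1a), p27 (Cdkn1b) and p57 (Cdkn1c) bind cyclin-kinase complexes and hold the cell in G1, although they also help cyclin D and its kinases to assemble. In the mouse uterus estrogen drives epithelial cells through this step, progesterone halts them before implantation while the stroma divides, and cyclin D3 with its kinases and p21 is known from the differentiation of stroma into decidua.

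The upstream sequences of the only member that passed the test, Cdkn1a, and of Ccne1, whose genotypes did not overlap, are shown first. RefSeq upstream windows (GRCm38.p6) were at hand for 6 of the 10 members. The windows cover the 250 bases before each start, 5′ to 3′ on the strand of the gene. Capitals mark the GC box GGGCGG, the steroid receptor hexamer TGTTCT and the p53 response element, each read on both strands. The last is 2 adjacent decamers, read by name with at most 1 mismatch outside their fixed bases, and no match overlapped another. Cdkn1a has 2 annotated starts that lie 2790 bases apart, the first window at chr17:29090729-29090978 and the second at chr17:29093519-29093768, both on the plus strand, and the window of Ccne1 is chr7:38107491-38107740 on the minus strand.
Cdkn1a, first start: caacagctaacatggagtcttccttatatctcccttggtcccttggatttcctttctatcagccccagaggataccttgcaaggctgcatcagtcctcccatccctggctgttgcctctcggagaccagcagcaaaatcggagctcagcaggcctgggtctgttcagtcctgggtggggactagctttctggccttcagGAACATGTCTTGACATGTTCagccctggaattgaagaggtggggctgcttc
Cdkn1a, second start: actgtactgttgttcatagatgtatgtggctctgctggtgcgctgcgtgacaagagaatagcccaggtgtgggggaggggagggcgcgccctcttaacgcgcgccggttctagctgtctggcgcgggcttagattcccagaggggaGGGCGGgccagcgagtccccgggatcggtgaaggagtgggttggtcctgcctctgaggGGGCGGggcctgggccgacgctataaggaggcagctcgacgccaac
Ccne1: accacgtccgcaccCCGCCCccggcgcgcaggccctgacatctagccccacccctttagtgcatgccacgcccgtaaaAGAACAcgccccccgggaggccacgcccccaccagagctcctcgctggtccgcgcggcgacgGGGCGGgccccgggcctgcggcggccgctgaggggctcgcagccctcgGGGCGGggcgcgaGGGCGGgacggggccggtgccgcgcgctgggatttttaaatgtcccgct

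Before its first start Cdkn1a had a match to the p53 response element that begins 51 bases upstream, a match that 19 of 32851 upstream windows of the same length hold (0.0578%). This motif was chosen after the sequences were read, so the low share cannot be read as a result. The second Cdkn1a window held 2 GC boxes and the Ccne1 window 4, and 32.7% of all windows hold at least 1. The Ccne1 window also held 1 steroid receptor hexamer, as 16.1% of windows do. The E2F letters TTTCCCGC and TTTGGCGC, on either strand, stood in 1.3% of all windows and in none of these 3. These are matches of letters in short windows, and binding was not measured.

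Values are taken as FPKM, since the headers name no unit. FPKM are fragments scaled by gene length and library size, so levels can be set roughly side by side between genes. Fragments that fit overlapping genes limit this. A value of at least 1 FPKM was listed for all 10 members in all 6 libraries, so each of them entered the test. Differences between the genotypes are d/d minus control means of log2(FPKM + 1), which makes changes of low genes look smaller than they were. A gene passed the test at a limma p under 0.05 after Benjamini-Hochberg adjustment over 12979 genes. Libraries summed to 534944 to 625491 FPKM and their absolute depth is unknown. Mettl3 itself was at 26.3 to 30.3 FPKM across the controls and at 30.1 to 46.5 across d/d, and since a gene-wide value also counts exons outside a deletion, it does not check the labels. The control libraries were closer to each other (Spearman correlation over genes 0.978 to 0.989) than the d/d libraries were (0.870 to 0.916), and the latter were about as far from each other as from the control libraries (0.850 to 0.921).

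Of the 10 genes, Cdkn1a rose in the d/d uteri, none fell, and 9 did not pass. Over all genes tested, 7.3% were called changed, 3.49% higher and 3.81% lower. That background itself rests on the control libraries: against 453 higher and 494 lower calls with all 6 libraries, 0, 6 and 50 higher and 0, 24 and 61 lower calls were made without control 1, 2 and 3. The genotypes did not overlap for 4 of the 10 members, against 35.9% of all genes. Cdkn1a, Ccnd1 and Ccne1 were higher in every d/d library than in any control library, which held for 18.1% of all genes, and Cdkn1c was lower, which held for 17.8%. The median log2 fold change of the 10 was 0.18 (range -0.97 to 1.62) and that of all genes 0.02, and 6 members had a positive and 4 a negative value.

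**Figure D1:**
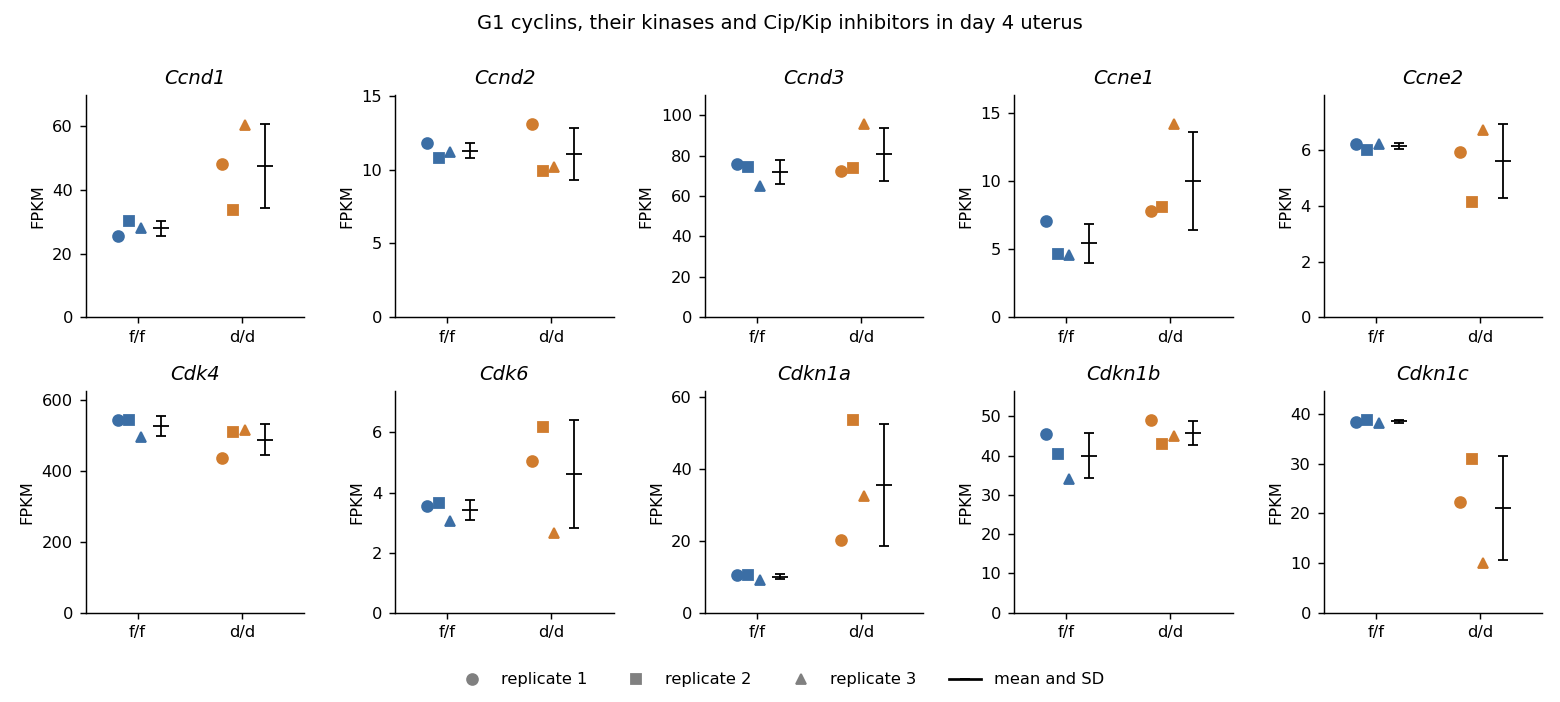
FPKM of each gene (vertical axis, from 0) in the 3 f/f and the 3 d/d libraries, with marker shapes for the replicates and the mean and SD in black. Cdkn1a, Ccnd1 and Ccne1 lay higher and Cdkn1c lower in all 3 d/d libraries, and Cdk4 stood far above the other genes at 437 to 544 FPKM.

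**Figure D2:**
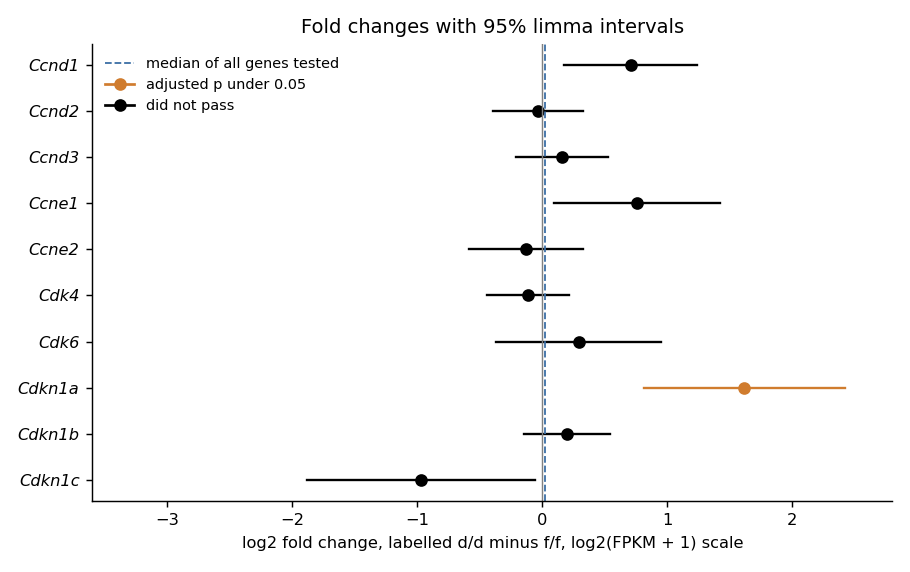
Log2 fold change of each gene (horizontal axis, d/d minus f/f) with its 95% limma interval, and the median of all genes as a dashed line. The interval of Cdkn1a runs from 0.81 to 2.42 and it alone passed the adjusted threshold; those of 6 members include 0.

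Ccnd1 encodes cyclin D1, the D-type cyclin that growth factor and estrogen signals raise in many epithelia (chromosome 7, 144929931 to 144939925, minus strand, GRCm38). Controls 1, 2 and 3 held 25.5, 30.3 and 28.0 FPKM of Ccnd1, and d/d 1, 2 and 3 held 48.3, 33.8 and 60.3. All 3 d/d libraries were above the control libraries, d/d 2 only just so. The means were 27.9 ± 2.37 and 47.5 ± 13.3 FPKM (SD, n = 3 each), a 1.70-fold ratio and a log2 fold change of 0.71 (SE 0.22, 95% interval 0.18 to 1.24), which did not pass over all genes (limma adjusted p = 0.104). Without d/d 2 the log2 fold change was 0.93 and passed (limma adjusted p = 0.0268). The exact permutation p (two-sided) was 0.1, below which 3 against 3 libraries cannot go. Ccnd1 overlaps LTO1 on the other strand by 1771 bp, and no use of strand is stated, so fragments in that part cannot be told apart.

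Ccnd2 encodes cyclin D2 (chromosome 6, 127125162 to 127152193, minus strand). Its values of 11.8, 10.8 and 11.2 FPKM in controls 1 to 3 lay inside the range of the d/d libraries, at 13.1, 9.87 and 10.2. The log2 fold change was -0.04 (95% interval -0.40 to 0.33, limma adjusted p = 0.903), and its sign turned without d/d 2 or 3 (0.03 and 0.01).

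Ccnd3 encodes cyclin D3, the D-type cyclin best known from decidual stroma (chromosome 17, 47505051 to 47599691, plus strand). It was the most abundant of the 5 cyclin genes in each library. Its levels were 75.9, 74.5 and 64.9 FPKM in controls 1 to 3 and 72.5, 73.8 and 95.7 in d/d 1 to 3. Only d/d 3 stood above the control range. The log2 fold change of 0.16 did not pass (95% interval -0.21 to 0.52, limma adjusted p = 0.546). It overlaps Bysl on the other strand by 361 bp, and a pseudogene, Ccnd3-ps, is annotated, so fragments that fit both could have been split.

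The summed level of the D-type cyclins was 113, 116 and 104 FPKM in controls 1 to 3 and 134, 118 and 166 in d/d 1 to 3. Cyclin D3 made up 64.6% ± 2.35 of that sum in controls and 58.2% ± 4.37 in d/d libraries (n = 3 each), with ranges that overlapped. The share of Ccnd1 was 22.5%, 26.2% and 26.9% in controls and 36.1%, 28.8% and 36.3% in d/d libraries. Ccnd1 thus took a larger part of the D-type transcripts in all 3 d/d libraries, by 8.49 percentage points on average, while Ccnd3 stayed the largest part throughout.

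Ccne1 encodes cyclin E1, an E2F target that activates Cdk2 (chromosome 7, 38097984 to 38107534, minus strand). Controls 1 to 3 held 7.07, 4.63 and 4.55 FPKM, and d/d 1 to 3 held 7.80, 8.10 and 14.2. The genotypes did not overlap, but d/d 1 lay only a little above control 1. The means were 5.42 ± 1.43 and 10.03 ± 3.61 FPKM (n = 3 each), and the log2 fold change of 0.76 (SE 0.27, 95% interval 0.09 to 1.42) did not pass (limma adjusted p = 0.144). Its exact permutation p was 0.1.

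Ccne2 encodes cyclin E2, the second activator of Cdk2 in this family (chromosome 4, 11191351 to 11204779, plus strand). The control libraries were almost identical at 6.21, 6.02 and 6.21 FPKM, while d/d 1 to 3 held 5.96, 4.15 and 6.74. The d/d values thus lay on both sides of the control values, with a difference of -0.13 on the log2 scale (95% interval -0.59 to 0.32, limma adjusted p = 0.691) that turned to 0.04 without d/d 2. Ccne2 overlaps Ints8 on the other strand by 5622 bp. In the control libraries Ccne1 held 53.2%, 43.5% and 42.3% of the summed E-type cyclin level, and in d/d libraries 56.7%, 66.2% and 67.8%, so the larger of the 2 transcripts was Ccne2 in 2 of the control libraries and Ccne1 in all d/d libraries.

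Cdk4 is the kinase partner of D-type cyclins in most tissues (chromosome 10, 127063534 to 127067920, plus strand). Its level was the highest of the 10 genes in every library, at 542, 544 and 494 FPKM in controls 1 to 3 and 437, 510 and 516 in d/d 1 to 3. The groups overlapped, and the log2 fold change was -0.11 (95% interval -0.45 to 0.22, limma adjusted p = 0.635). It overlaps Tspan31, listed at 60.9 to 76.1 FPKM, on the other strand by 641 bp.

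Cdk6, the other cyclin D kinase, was the lowest of the 10 by its mean in both genotypes (chromosome 5, 3341485 to 3531008, plus strand). Controls 1 to 3 held 3.56, 3.67 and 3.05 FPKM. In d/d 1 and 2 it was higher, at 5.06 and 6.17, and in d/d 3 it was lower than in any control library, at 2.65. The log2 fold change of 0.29 did not pass (95% interval -0.37 to 0.95, limma adjusted p = 0.536). Cdk4 made up 98.8% to 99.5% of the summed level of the 2 kinases in all 6 libraries.

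Cdkn1a encodes p21, which p53 and differentiation signals raise and which arrests cells in G1 (chromosome 17, 29090976 to 29100727, plus strand). Levels were 10.5, 10.5 and 9.26 FPKM for controls 1 to 3, and 20.4, 53.8 and 32.5 for d/d 1 to 3. The control libraries were tight, every d/d library was above them, and the d/d libraries differed among themselves. The means were 10.1 ± 0.741 and 35.6 ± 16.9 FPKM (n = 3 each), a 3.52-fold ratio, with a log2 fold change of 1.62 (SE 0.33, 95% interval 0.81 to 2.42, limma adjusted p = 0.0408). The exact permutation p was 0.1. The adjusted p was not far under the threshold: the call was lost without control 1, 2 or 3 (adjusted p up to 0.156) and without d/d 3, while the log2 fold change stayed between 1.27 and 1.95. It was also lost without the filter on low values (adjusted p = 0.0632) and with the replicate number as a block (adjusted p = 0.0825).

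Cdkn1b encodes p27, which keeps quiescent cells in G1 and is destroyed at the entry to S phase (chromosome 6, 134920401 to 134925513, plus strand). Controls 1 to 3 held 45.5, 40.5 and 34.0 FPKM, and d/d 1 to 3 held 49.1, 43.0 and 45.0. The groups overlapped, with a difference of 0.20 on the log2 scale (95% interval -0.15 to 0.54, limma adjusted p = 0.425). It was the only member whose spread on the log2 scale was smaller in the d/d than in the control libraries (SD 0.10 against 0.21).

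Cdkn1c encodes p57, an imprinted inhibitor that is expressed in differentiating cells and in decidua (chromosome 7, 143458339 to 143461050, minus strand). The control libraries lay within a narrow range, at 38.5, 38.9 and 38.2 FPKM. Its levels in d/d 1, 2 and 3 were 22.3, 30.9 and 9.999, all below the control range and lowest in d/d 3. The means were 38.5 ± 0.359 and 21.1 ± 10.5 FPKM (n = 3 each), and the log2 fold change of -0.97 (SE 0.38, 95% interval -1.88 to -0.06) did not pass over all genes (limma adjusted p = 0.165, exact permutation p = 0.1). Cdkn1c, Cdkn1a, Cdk6 and Ccnd2 overlap antisense or unclassified loci on the other strand, by 892 bp for Cdkn1c and 1046 bp for Cdkn1a.

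The 3 inhibitors together summed to 94.6, 89.9 and 81.4 FPKM in controls 1 to 3 and to 91.9, 128 and 87.5 in d/d 1 to 3, and these ranges overlapped. Their make-up differed more than their sum. Cdkn1a held 11.4% ± 0.290 of the sum in controls and 22.2%, 42.1% and 37.1% in d/d 1 to 3. Cdkn1c held 43.6% ± 3.09 in controls and 24.3%, 24.2% and 11.4% in the d/d libraries. For each of these 2 shares the genotypes did not overlap, by 22.4 percentage points up for Cdkn1a and a difference of -23.6 for Cdkn1c. The share of Cdkn1b was 45.0% ± 3.19 and 46.2% ± 10.9 (n = 3 each) and overlapped. Since shares of 1 sum move against each other, these differences are not independent, and no test was run on them.

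**Figure D3:**
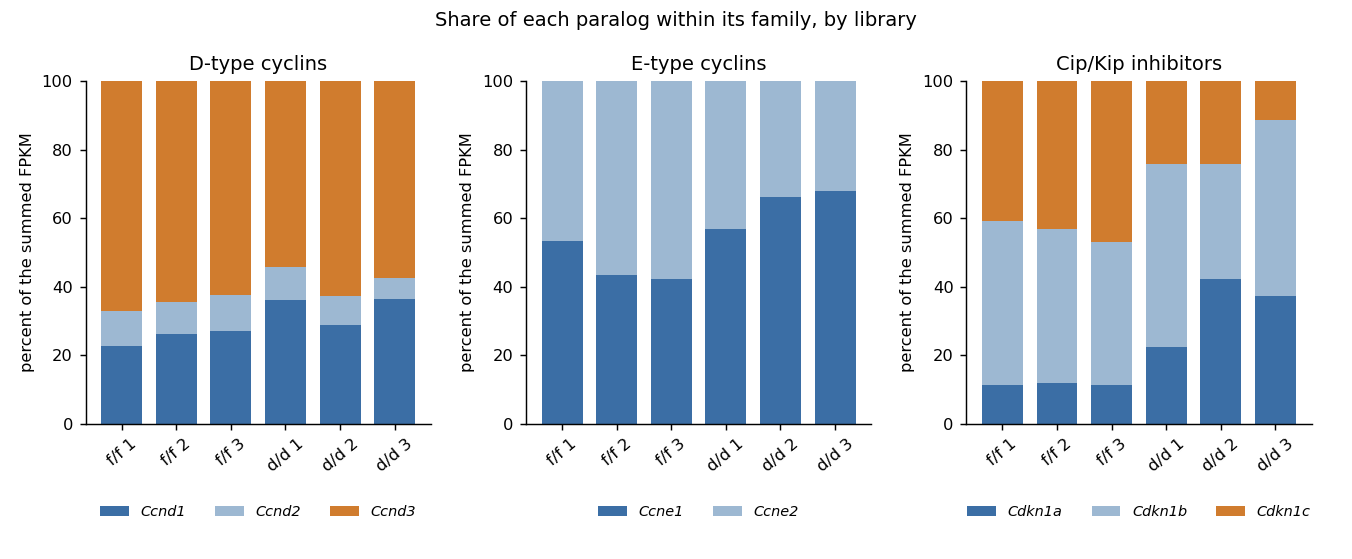
Percent of the summed FPKM of the D-type cyclins, the E-type cyclins and the Cip/Kip inhibitors held by each paralog (vertical axis), as stacked bars for each of the 6 libraries. Cdkn1a took 11.1% to 11.7% of the Cip/Kip sum in controls and 22.2% to 42.1% in d/d libraries, and Cdkn1c took 40.7% to 46.9% and 11.4% to 24.3%.

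Ordered by mean level, the control uterus had Cdk4 at 527 FPKM, then Ccnd3, Cdkn1b, Cdkn1c, Ccnd1, Ccnd2, Cdkn1a, Ccne2, Ccne1 and Cdk6 at 3.43. Neighbours whose control ranges overlapped were Cdkn1b with Cdkn1c and Ccne2 with Ccne1. In the d/d uterus the order was Cdk4 at 487 FPKM, Ccnd3, Ccnd1, Cdkn1b, Cdkn1a, Cdkn1c, Ccnd2, Ccne1, Ccne2 and Cdk6 at 4.63. There only Cdk4 and Ccnd3, Ccnd3 and Ccnd1, and Ccne1 and Ccne2 were neighbours with separate ranges. Each other pair of neighbours overlapped, Ccne2 with Cdk6 included.

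The d/d libraries did not shift alike. In 9 of the 10 members the SD on the log2 scale was larger in the d/d than in the control libraries, as in 82.7% of all genes, and the median SD of the members was 0.10 and 0.36 against 0.13 and 0.30 over all genes. Among the 5 cyclin genes, 4 had their highest value of all in d/d 3 (Ccnd1, Ccnd3, Ccne1 and Ccne2). For Ccne2 the margin was small, at 6.74 FPKM against 6.21 in the highest control. The share of all genes with their highest value in d/d 3 was not counted, so this cannot be read as particular to cyclins. Cdk6 and Cdkn1c had their lowest value in that library, and Cdkn1a had its highest in d/d 2.

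Markers of the cell types of the uterus also differed between the libraries. Over all genes tested, 3.49% were called higher and 3.81% lower, and the marker lists were chosen with earlier results of these data known. Epithelial markers summed to 1101 to 1308 FPKM in controls and 741 to 2481 in d/d libraries, with 2 of 8 called higher (Epcam and Krt7) and 0 lower. Of the other 6, Cldn3 lay below the controls in all 3 d/d libraries (433 to 483 against 76.3 to 390 FPKM) without passing (log2 fold change -1.15, limma adjusted p = 0.266), and the remaining 5, Krt18 among them at -0.05, overlapped between the genotypes. The medians of the 8 against the control mean (log2) were 0.96, -0.32 and 1.40 in d/d 1 to 3. Endothelial markers summed to 213 to 330 FPKM and 108 to 196, with 1 of 6 called lower (Cdh5). All 6 had a negative log2 fold change. In 5 of them every d/d library lay below every control, as in 17.8% of all genes, and 1 overlapped. The medians of the endothelial markers were -0.74, -0.55 and -1.25. Leukocyte markers summed to 49.1 to 62.2 FPKM and 135 to 578, with 1 of 6 called higher (Cd68) and medians of 1.01, 3.37 and 0.14. All 6 had a positive log2 fold change. In 3 of them every d/d library lay above every control, against 18.1% of all genes, and 3 overlapped.

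Stromal markers summed to 2120 to 2523 FPKM and 1548 to 3862 with 0 of 7 called and medians of -0.78, 0.65 and 0.52. Of these 7, 4 had a positive and 3 a negative log2 fold change. In 1 every d/d library lay below every control, against 17.8% of all genes, and 6 overlapped. Smooth muscle markers summed to 2281 to 5229 and 1081 to 4089 FPKM with 1 of 6 called lower (Smtn). All 6 had a negative log2 fold change. In 1 of them every d/d library lay below every control, and 5 overlapped. The medians of the smooth muscle markers were -1.88, -0.92 and 0.10. On the same scale Cdkn1a was at 0.95, 2.30 and 1.59, Ccnd1 at 0.77, 0.27 and 1.09 and Cdkn1c at -0.76, -0.31 and -1.85 in d/d 1 to 3. Neutrophil markers summed to 3.00 to 7.84 and 15.7 to 974 FPKM, the highest value in d/d 2, and 3 of these 6 were tested and none was called; S100a9, Camp, Ngp and Mpo were listed at 0 in at least 1 library. No marker of the other lists was at 0 in any library. The part of cell type in the results above was not tested, and in whole tissue fewer cells of a type and less RNA per cell cannot be told apart.

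**Figure D4:**
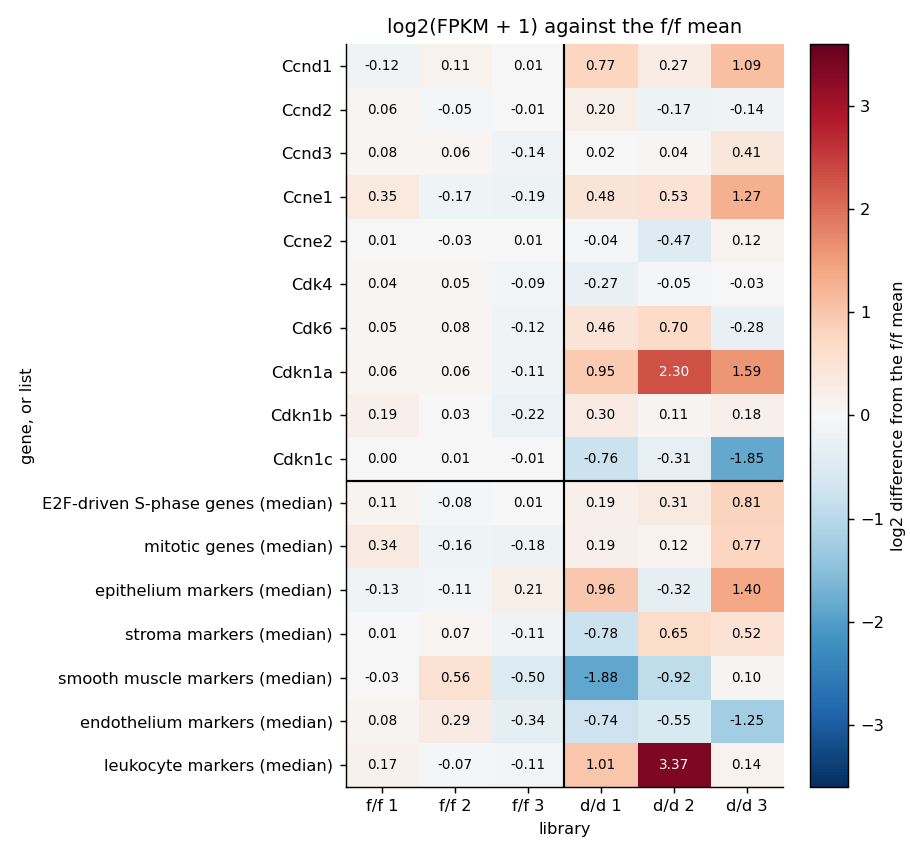
Difference from the control mean on the log2(FPKM + 1) scale (colour and printed value) for each of the 10 genes, and below the line the medians of cell cycle lists and of cell type markers, in the 6 libraries (horizontal axis). Cdkn1a is at 0.95, 2.30 and 1.59 and Cdkn1c at -0.76, -0.31 and -1.85 in d/d 1 to 3, where epithelial markers are at 0.96, -0.32 and 1.40.

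Around the 10 genes, 33 other genes of the G1 to S transition were listed, and 31 entered the test. Of these, 3 were higher, 2 were lower and 26 did not pass, against 3.49% and 3.81% of all genes. Their median log2 fold change was 0.05, near the 0.02 of all genes. The list was chosen with earlier results of these data known, so its share of calls cannot be read as enrichment. The 5 that passed were Cdkn2b, Mycn and Cebpb, which rose, and Myc and Ccng1, which fell. Leaving out control 1, 2 or 3 ended the calls of higher genes and of lower genes alike (0 and 0). Ccng1 was also not called without d/d 1 or d/d 3, nor Cebpb without d/d 2 or d/d 3, whereas Myc, Mycn and Cdkn2b were called without any 1 of the d/d libraries.

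Among the INK4 inhibitors, which block Cdk4 and Cdk6 alone, 3 were tested. Cdkn2b (p15) rose and the other 2 did not pass. Controls 1 to 3 held 0.536, 0.145 and 1.02 FPKM, and d/d 1 to 3 held 2.88, 3.54 and 4.06, for a difference of 1.55 on the log2 scale (SE 0.25, limma adjusted p = 0.0258). Cdkn2b stayed low beside Cdkn1a and Cdkn1b, and it entered the test only through the d/d libraries. Cdkn2c, the most abundant of these genes, held 27.3, 26.0 and 35.5 FPKM in controls and 23.1, 17.5 and 20.6 in d/d libraries. Every d/d library lay below every control, as in 17.8% of all genes (log2 fold change -0.51, limma adjusted p = 0.121). Cdkn2d was at -0.05 (limma adjusted p = 0.904). Cdkn2a did not enter the test, with values of 0.254 to 2.55 FPKM in controls and 0.273 to 2.09 in d/d libraries.

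The group listed as upstream of the D-type cyclins held Myc, Mycn, Cebpb, Trp53 and the p53 target Ccng1, whose place there was not tested. Of these 5, 2 rose and 2 fell, against 3.49% and 3.81% of all genes. Myc, which drives cell growth and represses Cdkn1a in many cells, stood at 75.4, 64.2 and 82.1 FPKM for controls 1 to 3, then 28.7, 32.9 and 25.9 for d/d 1 to 3, and fell by 1.31 on the log2 scale (limma adjusted p = 0.0116). Mycn, its paralog, went from 0.547, 0.596 and 0.856 FPKM to 12.1, 18.7 and 64.9. Its log2 fold change was 3.95 (limma adjusted p = 0.0213). Every control was under 1 FPKM, so Mycn entered the test only through the d/d libraries. With such controls only a gene higher in d/d could enter. The paralogs thus moved in opposite directions, with no overlap between the genotypes in either. Every d/d library lay below every control in 17.8% of all genes and above in 18.1%. For Mycn the filter fixed the lack of overlap in advance.

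Cebpb, a transcription factor of decidual differentiation, stood at 24.8, 28.1 and 13.9 FPKM for controls 1 to 3, then 49.4, 137 and 106 for d/d 1 to 3 (log2 fold change 2.02, limma adjusted p = 0.0454). Its highest value was in d/d 2, as for Cdkn1a. Ccng1, a p53 target, fell from 56.3 ± 1.77 to 38.8 ± 3.68 FPKM (n = 3 each, log2 fold change -0.53, limma adjusted p = 0.0492). Its call was lost in 10 of the 15 alternatives. Trp53, which encodes p53, ranged from 70.9 to 79.0 FPKM over the controls and from 64.7 to 73.9 over d/d, and did not pass (log2 fold change -0.12, limma adjusted p = 0.538). The part of p53 in these values was not tested.

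Of the 3 pocket protein genes, whose products D-type cyclin kinases phosphorylate, none passed. Of these, 2 had a positive and 1 a negative log2 fold change. Rbl2 (p130), typical of resting cells, had the lowest p, with controls at 24.4, 24.9 and 29.3 FPKM against 19.1, 19.2 and 11.3 for d/d (log2 fold change -0.67, limma adjusted p = 0.121). None of the 10 E2F and DP factor genes passed, with a median log2 fold change of 0.22. Of these, 7 had a positive and 3 a negative value. At an unadjusted limma p under 0.05, 4 were higher and 1 lower, against 13.1% and 13.6% of all genes. The lowest p of the 10 was that of Tfdp2, an E2F dimer partner, which was lower in d/d. Its levels were 7.81 ± 0.734 in controls and 4.97 ± 0.739 FPKM in d/d (n = 3 each, limma adjusted p = 0.0825).

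Of 6 genes of Cdk2 and CDK activation none passed, the lowest p being that of Ccnh, the cyclin of the CDK-activating kinase (log2 fold change -0.35, limma adjusted p = 0.153). Of 4 tested ubiquitin ligase genes that act on these proteins none passed either, with Fbxo31, which targets cyclin D1, at a log2 fold change of -0.24 (limma adjusted p = 0.331). Skp2, whose product marks p27 for destruction, was listed at 0 in all 6 libraries, which can be a failed estimate, and was not tested.

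**Figure D5:**
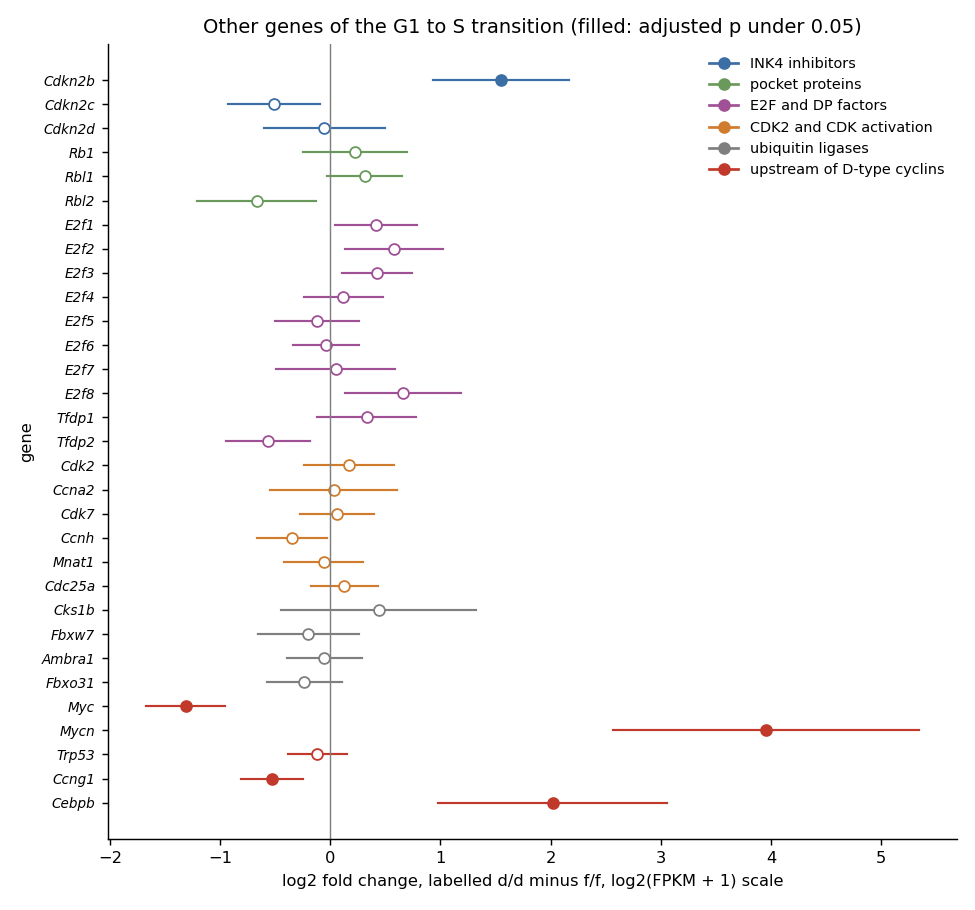
Log2 fold change (horizontal axis, d/d minus f/f) with its 95% limma interval for the 31 tested genes of the G1 to S transition outside the 10, coloured by role, with filled points at an adjusted p under 0.05. Mycn (3.95), Cebpb (2.02) and Cdkn2b (1.55) lie to the right and Myc (-1.31) and Ccng1 (-0.53) to the left.

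Downstream of cyclin E, none of 14 E2F-driven S-phase genes and none of 10 mitotic genes passed (limma), although the medians of their log2 fold changes were 0.48 and 0.42. At an unadjusted p under 0.05, 5 S-phase genes were higher and 1 lower, against 13.1% and 13.6% of all genes (26.7% in either direction), and 0 mitotic genes were. Both lists were chosen with earlier results of these data known. Mcm6, a replication helicase gene, had the lowest p of the S-phase list, with controls at 32.3, 29.8 and 33.3 FPKM against 43.4, 43.0 and 47.3 for d/d (limma adjusted p = 0.0537). Mcm3, the most abundant of that list, ranged from 58.5 to 75.4 FPKM over the controls, against 69.0, 78.5 and 155 for d/d (limma adjusted p = 0.373).

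The mitotic kinase gene Aurka and the topoisomerase gene Top2a had adjusted p of 0.214 and 0.954 (limma). In d/d 3 the median of the S-phase list was 0.81 and that of the mitotic list 0.77 above the control mean (log2). The S-phase list was at 0.19 and 0.31 and the mitotic list at 0.19 and 0.12 in d/d 1 and 2, where control 1 was at 0.11 and 0.34. The library in which 4 of the 5 cyclin genes (all but Ccnd2) had their highest value, d/d 3, also had the highest S-phase and mitotic medians. A link between these was not tested.

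The genes whose pattern over the 6 libraries was most like that of Cdkn1a, among 10198 genes with a mean of at least 5 FPKM, were Fam220a, Vrk2 and Efhd2 (Pearson r = 0.998, 0.998 and 0.996 of log2(FPKM + 1)). Those most like Ccnd1, the member with the next lowest p, were Ppip5k1, Lsr and Homez (r = 0.998, 0.997 and 0.996). With only 6 libraries high values are common: 172 genes had r above 0.95 with Cdkn1a and 213 with Ccnd1. The correlations describe these libraries, which share 2 genotypes, and were not tested.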

How the data were processed

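RNA from whole uterus was measured in 6 libraries, 3 labelled f/f (the controls) and 3 labelled d/d. The authors deposited 1 table per library, taken as FPKM; the headers name no unit, and Cufflinks writes FPKM. The tools were HISAT2 2.2.1 and Cufflinks 2.2.1, per the submitters' processing notes, which list both mm9 and mm10; options, annotation and use of strand: not given in the sources used here. Gene coordinates come from GENCODE on GRCm38, which holds 99.5% of the gene IDs; the build of the tables is not settled. Total fragment numbers are unknown, so no counting interval is given.

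Of rows sharing a symbol the highest was kept (36 removed). Genes at 1 FPKM or more in at least 3 libraries (12979) entered limma 3.58.1 (R 4.3.3) on the log2(FPKM + 1) scale (genotype only, intensity trend, Benjamini-Hochberg), after a check on simulated data. Exact permutation tests were two-sided. Named were all 10 members, called genes of the G1 to S list and the lowest p of each of its roles. The lowest p and highest mean of the S-phase and mitotic lists were also named. Cdkn2a, Cdkn2c, Cdkn2d, Skp2, Trp53, Cldn3, Krt18 and called markers were named after their values were seen. Members and lists were chosen with earlier results of these data known, and the p53 motif after the sequences were read. The alternatives were another pseudocount, 2 filters, 3 scalings, array weights, no trend, a replicate block and each library left out.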

Additional observations from a re-analysis of the deposited data

How the results depend on the processing

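Cdkn1a was higher under all 15 alternatives, and its call was lost in 6. The count of higher members (1) became 0 without a filter on low values and 0 with the replicate block, and ranged from 0 to 2 with 1 library left out (2 without d/d 2, where Ccnd1 also passed). No member was called lower in any alternative. The numbers were not treated as pairs in the main fit because no label says that a number is shared between genotypes. Same-numbered libraries did not deviate together (correlations of -0.02, 0.02 and -0.02). With the replicate block, 51 genes were called higher and 49 lower over all genes, against 453 and 494, and 0 higher and 0 lower of the other G1 to S genes. Without a filter 291 genes were called higher. With 1 library left out the counts over all genes ranged from 0 to 729 higher and 0 to 748 lower, and those of the other G1 to S genes from 0 to 3 higher and 0 to 2 lower. Of the latter, 1 was higher (Cebpb) and 1 lower (Myc) with at least 1 FPKM in all libraries, a filter that took Mycn and Cdkn2b out of the test. With array weights 1 was higher (Mycn) and 1 lower (Myc). Only Myc was lower with a pseudocount of 0.1 and with no intensity trend. Of the S-phase and mitotic genes 0 to 1 were lower with 1 library left out (Tyms, without d/d 3). Signs turned for values near 0: Ccnd2 (0.032 and 0.014 without d/d 2 and 3, from -0.15 to 0.032 with 1 library left out), Ccne2 (0.038 without d/d 2, from -0.26 to 0.038) and Top2a (-0.075, -0.053 and -0.071 under the same sum, the same upper quartile and quantile normalization, from -0.18 without control 3 to 0.18 with 1 library left out). The shares of Ccnd1, Cdkn1a and Cdkn1c kept their direction, differing by 7.16 to 11.0, 18.3 to 28.2 and -25.8 to -19.4 percentage points. Beyond the filters and left-out libraries, which change the genes or samples tested, the cause was not tested. Depth is unknown, so the counting error of genes at low FPKM could not be given.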

Other observations

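GGACT is the most common form of the sequence around N6-methyladenosine, so its matches were counted in the longest protein-coding GENCODE transcript of each gene. Over 12799 tested genes the median was 1.06 matches per kb, and 92.6% had at least 1. Of the 10 members 3 lay above that median and 7 below it. Cdkn1a had 4 in 2080 bases (1.92 per kb, above 86.5% of tested genes), Ccne1 had 3 in 2000 bases (1.50 per kb) and Ccnd3 had 3 in 2113 bases (1.42 per kb). Ccnd1 had 3 in 3740 bases (0.802 per kb) and Cdkn1c had 2 in 1901 bases (1.05 per kb), close to the median. Ccnd2 (0.948 per kb), Cdk6 (0.781), Ccne2 (0.665) and Cdkn1b (0.659) were below it, and Cdk4, the most abundant member, had 0 in 2053 bases. These are counts of letters, methylation was not measured, and no relation to the fold changes was tested.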
